A study of Mus musculus with 20 samples.

Results

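Maternal-effect genes are transcribed while the oocyte grows, and their products are used after ovulation, when the egg and early embryo run without new transcription. Together with other genes transcribed mainly in the oocyte, they are known for chromatin remodelling of the parental genomes, storage and clearance of maternal messenger RNA, nuclear import and protein turnover. In the ovary, RNA of this kind comes from the oocytes of growing follicles and makes up a small part of the tissue's RNA. The 10 genes described here are Dppa3, Zar1, Npm2, H1foo, Btg4, Oosp1, Kpna7, Bcl2l10, Rfpl4 and Oas1d. They were taken by name from the 23457 genes counted, have a row for each of the 20 libraries, and all passed the filter on low counts that left 16099 genes for testing.

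Whole frozen ovaries of female Ames dwarf mice and their normal counterparts gave the RNA, with 5 mice in each of 4 groups. The groups were dwarf (df/df) mice at 22 months, dwarf mice at 6 months, normal (N/df) mice at 22 months and normal mice at 6 months. Mice homozygous for df lack the pituitary cells that make growth hormone, prolactin and thyroid-stimulating hormone from birth onward. The normal mice are not wild type but heterozygous for df, so the allele is present in every library. Total counts over genes ranged from 5399377 to 13448164 in dwarf mice at 22 months, from 14224520 to 36068284 in dwarf mice at 6 months, from 5186090 to 20266823 in 22-month normal mice and from 1365640 to 22429386 in 6-month normal mice.

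The library labelled normal, 6 months, replicate 2 stood apart from its group. Its 8 granulosa markers summed to 182 CPM (counts per 1000000 counts of the library), against 2475 to 5303 CPM in the other 4 libraries of the group, and its 8 oviduct epithelial markers summed to 6277 CPM, against 32.5 to 338 CPM. Results that rest on this library are given with and without it. Normal 6-month replicate 3 was the shallowest library and had 14.8% of its counts on the ribosomal gene Rn45s, and normal 22-month replicate 3 was high in B and plasma cell markers. These 3 are called the libraries in doubt. The smallest distance within a group was between replicates 1 and 4 of the 22-month dwarf mice, with a chi-square per degree of freedom of 2.42 against 11.6 for the next pair. This is still above sampling noise, and they were counted as 2 mice.

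Promoter windows were available for 6 of the 10 genes. They are printed here with a shared sequence element marked, which was picked out after they had been seen. Each window runs from 250 bases before to 50 bases after the annotated start, is read 5′ to 3′ on the gene's own strand, and comes from RefSeq on GRCm38.p6. The positions are chr5:72581035-72581334, minus strand, for Zar1, chr6:115944681-115944980, plus strand, for H1foo, chr9:51115751-51116050, plus strand, for Btg4, chr19:11691002-11691301, minus strand, for Oosp1, chr5:145009587-145009886, minus strand, for Kpna7, and chr7:5116862-5117161, minus strand, for Rfpl4. Capitals mark CAGGTG or its reverse complement CACCTG, which is a form of the E-box (CANNTG).
Zar1: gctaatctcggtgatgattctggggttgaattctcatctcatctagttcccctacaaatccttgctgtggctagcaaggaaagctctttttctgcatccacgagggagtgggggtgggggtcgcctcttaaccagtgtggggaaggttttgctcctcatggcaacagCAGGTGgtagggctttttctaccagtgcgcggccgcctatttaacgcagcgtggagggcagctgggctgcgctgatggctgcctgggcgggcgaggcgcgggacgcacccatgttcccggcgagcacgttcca
H1foo: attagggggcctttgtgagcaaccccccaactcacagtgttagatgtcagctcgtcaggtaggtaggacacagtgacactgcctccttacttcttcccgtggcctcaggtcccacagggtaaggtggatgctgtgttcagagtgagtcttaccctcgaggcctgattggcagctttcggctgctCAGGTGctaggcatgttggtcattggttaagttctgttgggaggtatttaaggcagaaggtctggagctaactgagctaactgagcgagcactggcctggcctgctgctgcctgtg
Btg4: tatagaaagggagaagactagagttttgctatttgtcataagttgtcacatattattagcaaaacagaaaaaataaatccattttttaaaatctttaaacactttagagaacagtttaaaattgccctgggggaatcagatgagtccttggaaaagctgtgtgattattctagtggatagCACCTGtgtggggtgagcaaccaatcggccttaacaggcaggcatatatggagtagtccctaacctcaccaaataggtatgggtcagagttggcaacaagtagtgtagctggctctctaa
Oosp1: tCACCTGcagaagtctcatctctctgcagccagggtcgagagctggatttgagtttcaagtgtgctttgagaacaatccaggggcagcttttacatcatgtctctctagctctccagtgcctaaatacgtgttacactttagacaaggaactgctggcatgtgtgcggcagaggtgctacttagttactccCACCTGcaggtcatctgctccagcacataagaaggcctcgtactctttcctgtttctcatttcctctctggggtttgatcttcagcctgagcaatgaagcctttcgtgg
Kpna7: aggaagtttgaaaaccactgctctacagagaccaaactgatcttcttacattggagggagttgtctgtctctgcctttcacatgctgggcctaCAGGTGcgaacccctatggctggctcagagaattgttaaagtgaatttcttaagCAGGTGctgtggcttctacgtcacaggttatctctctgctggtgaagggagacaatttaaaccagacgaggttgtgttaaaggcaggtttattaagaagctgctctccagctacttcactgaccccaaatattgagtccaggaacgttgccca
Rfpl4: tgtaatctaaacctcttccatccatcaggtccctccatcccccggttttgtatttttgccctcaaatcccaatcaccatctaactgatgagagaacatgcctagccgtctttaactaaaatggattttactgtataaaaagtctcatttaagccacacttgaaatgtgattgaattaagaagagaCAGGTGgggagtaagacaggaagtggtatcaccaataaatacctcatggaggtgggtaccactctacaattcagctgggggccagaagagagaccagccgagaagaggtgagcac

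All 6 windows held the CAGGTG form on one strand or the other, and 20.2% of the 32851 promoter windows of this length in the RefSeq table did. E-boxes are the element through which FIGLA, a basic helix-loop-helix factor, is known to act on zona pellucida promoters in mouse oocytes. The match began at position -83 in Zar1, -66 in H1foo, -70 in Btg4, -59 in Oosp1, -103 in Kpna7 and -65 in Rfpl4, counted from the annotated start. Oosp1 had another match at -249 and Kpna7 another at -157. A match that began between 110 and 50 bases before the start was thus present in 6 of 6 windows, and in 4.93% of all windows. This form of the element and this stretch were chosen after the 6 sequences had been seen, so 6 of 6 is no test of either.

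The same element was counted in genes outside the 10. It was present in 13 of 30 windows (43.3%) of 24 other egg-specific genes, with 7 of 30 (23.3%) in the stretch of 110 to 50 bases. In 18 maternal-effect genes that are used in many tissues, such as Dnmt1 and Ctcf, it was present in 6 of 25 windows (24.0%), with 1 of 25 (4.00%) in that stretch. Of the other motifs searched on both strands, an E-box of any form was in 6 of 6 windows (72.3% of all windows), the NOBOX element TAATTG or CAATTA was in 0 of 6 (8.00%), and the TATA box TATAAA or TTTATA was in 1 of 6, Rfpl4 (13.6%). E-box matches include the CAGGTG form. These counts describe letters in the windows and say nothing about binding.

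**Figure D1:**
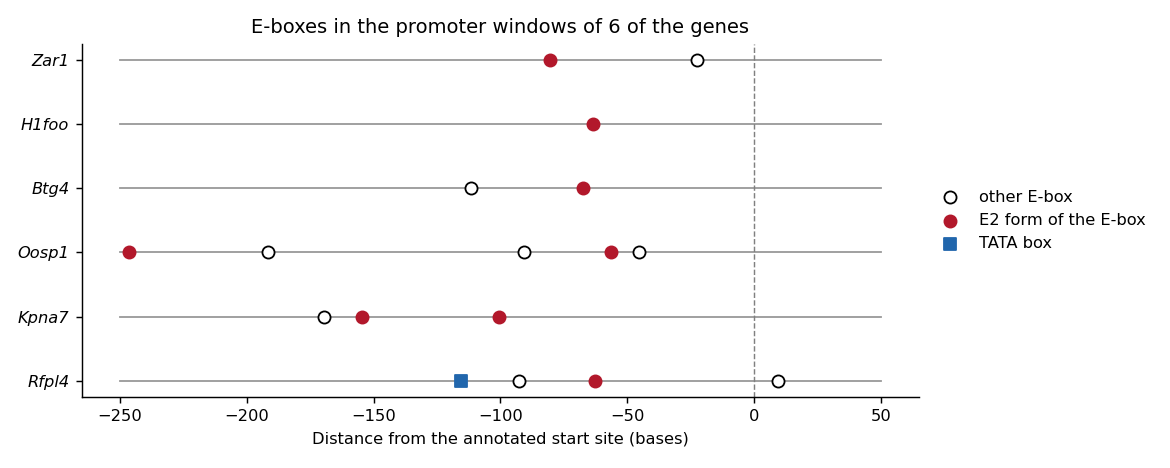
E-boxes in the promoter windows of Zar1, H1foo, Btg4, Oosp1, Kpna7 and Rfpl4, placed by distance in bases from the annotated start (dashed line). Filled circles are the E2 form (CAGGTG or its reverse complement), open circles other E-boxes and the square a TATA box, and each of the 6 lines has a filled circle between 110 and 50 bases before the start.

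The levels of the 10 genes ranged over a wide span within the ovary, and their order was similar in the 4 groups. Per kilobase of exon, H1foo, the linker histone of the oocyte, was the most abundant, with means of 7.74 CPM per kb in dwarf mice at 22 months, 56.5 in dwarf mice at 6 months, 2.23 in normal mice at 22 months and 39.0 in normal mice at 6 months. Npm2, the histone chaperone nucleoplasmin of the egg, and Bcl2l10, a Bcl2-family protein of the oocyte, held ranks 2 and 3 in each group. Kpna7, the importin alpha of egg and cleavage embryo, was the least abundant in each group, with 0.771, 3.45, 0.135 and 2.39 CPM per kb in the same order of groups. Most neighbours in the order overlapped in their ranges over libraries. The exceptions were Bcl2l10 above Dppa3 in dwarf mice at 22 months and Zar1 above Oas1d in dwarf mice at 6 months. Dppa3, whose protein shields the maternal genome from active demethylation after fertilization, held rank 4 in dwarf mice at both ages, rank 8 in normal mice at 22 months and rank 5 in normal mice at 6 months.

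Summed over the 10 genes, the level was 46.6, 43.2, 37.3, 39.1 and 28.9 CPM in dwarf mice at 22 months and 264, 199, 229, 288 and 269.6 CPM in dwarf mice at 6 months. In normal mice it was 9.87, 3.61, 5.54, 14.3 and 26.4 CPM at 22 months and 156, 2.26, 199.9, 246 and 236 CPM at 6 months. Every dwarf library at 22 months lay above every normal library of that age and below every dwarf library at 6 months. The mean at 22 months was 15.6% of that at 6 months in dwarf mice and 7.10% in normal mice, or 5.70% without normal 6-month replicate 2. In whole ovaries, fewer oocytes and less of these RNAs per oocyte cannot be told apart.

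**Figure D2:**
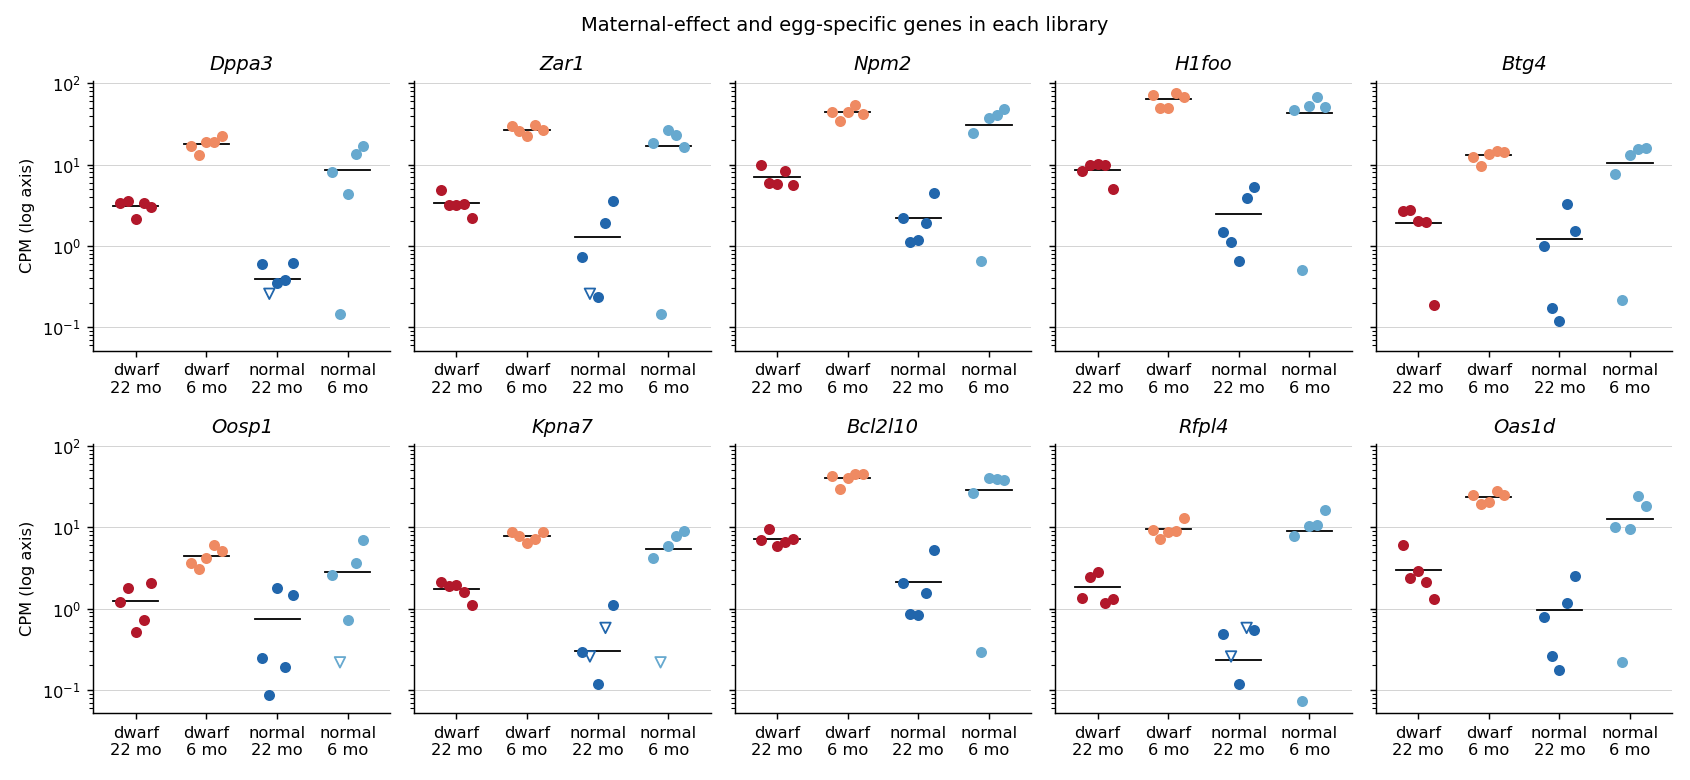
CPM (log axis) of each of the 10 genes in the 20 libraries, with dwarf 22-month, dwarf 6-month, normal 22-month and normal 6-month groups from left to right. Points are libraries in replicate order, black lines are group means (n = 5), and open triangles mark libraries with 0 counts, drawn at the level of 3 counts. In each panel the low normal 6-month point is replicate 2.

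In dwarf mice, 8 of the 10 genes were lower at 22 months than at 6 months (edgeR quasi-likelihood test, Benjamini-Hochberg adjusted p under 0.05), and 8.27% of all tested genes were lower by this rule. The log2 changes ran from -3.07 for Zar1 to -1.93 for Oosp1, with a median of -2.67, and the median over all tested genes was 0.0021. The genes with no call were Kpna7 (adjusted p = 0.0685) and Oosp1 (adjusted p = 0.131) in edgeR. For all 10 genes each 22-month dwarf library lay below each 6-month dwarf library, which held for 12.2% of all tested genes. Without the 3 normal libraries in doubt, which also enter the estimate of spread, edgeR called 10 of 10 lower, against 15.4% of all tested genes. With the similar 22-month replicates 1 and 4 summed into 1 library, it called 4 of 10 lower and 816 of 16286 genes lower.

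The genes that act on chromatin fell. H1foo had 8.26, 9.88, 10.2, 9.77 and 5.00 CPM in dwarf mice at 22 months, against 72.0, 49.6, 49.9, 75.0 and 68.1 CPM in dwarf mice at 6 months. The groups were far apart, and the log2 change was -2.94 ± 0.701 (SE, edgeR adjusted p = 0.0131). Npm2 averaged 7.07 ± 1.86 CPM at 22 months and 43.8 ± 7.04 CPM at 6 months (SD, n = 5 each), a log2 change of -2.72 ± 0.616 (edgeR adjusted p = 0.00999). Dppa3 averaged 3.08 ± 0.562 CPM at 22 months and 18.0 ± 3.36 CPM at 6 months, a log2 change of -2.63 ± 0.651 (edgeR adjusted p = 0.0151). H1foo, Npm2, Dppa3 and Oas1d kept their calls in all 10 fits that left out 1 dwarf library.

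Genes that act on maternal messenger RNA fell as well. Zar1, an RNA-binding protein needed for the start of embryonic development, had 4.93, 3.16, 3.20, 3.32 and 2.22 CPM in dwarf mice at 22 months, against 29.4, 25.6, 22.3, 30.9 and 26.3 CPM at 6 months, a log2 change of -3.07 ± 0.834 (edgeR adjusted p = 0.0243). Btg4, the adaptor that brings the CCR4-NOT deadenylase to maternal messengers, had 2.66, 2.77, 2.01, 1.97 and 0.185 CPM at 22 months, against 12.5, 9.62, 13.3, 14.8 and 14.3 CPM at 6 months. Replicate 5 at 22 months, with 1 count of Btg4, was the lowest. The log2 change of Btg4 was -2.81 ± 0.792 (edgeR adjusted p = 0.0288). Its call was lost in 9 of the 10 fits without 1 dwarf library, as was that of Rfpl4. Rfpl4 is a RING-finger-like protein of the oocyte linked to protein degradation. Zar1 lost its call in 6 and Bcl2l10 in 4 of these fits. Over all genes the 10 fits called 802 to 1681, against 1802 with all libraries.

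The remaining genes were lower at 22 months in every library. Rfpl4 averaged 1.82 ± 0.771 CPM at 22 months and 9.40 ± 2.19 CPM at 6 months, and Bcl2l10 7.19 ± 1.34 and 40.5 ± 6.34 CPM in the same order. Oas1d, an oocyte member of the oligoadenylate synthetase family without the enzyme's activity, averaged 2.97 ± 1.86 and 23.3 ± 3.55 CPM (log2 change -3.06 ± 0.740, edgeR adjusted p = 0.0138). Oosp1, a protein secreted by the oocyte, had 1.20, 1.78, 0.521, 0.717 and 2.04 CPM at 22 months, against 3.65, 3.09, 4.17, 5.98 and 5.07 CPM at 6 months. These ranges did not overlap either, and its log2 change of -1.93 was the smallest of the 10.

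Oviduct epithelial markers moved the other way in the same libraries. Their sum was 1891 to 3514 CPM in dwarf mice at 22 months and 34.7 to 1469 CPM at 6 months. EdgeR called 0 of these 8 markers, or 1 higher without the 3 libraries in doubt, and none was at 0 in any dwarf library. The 8 granulosa markers summed to 1232 to 2429 CPM at 22 months and 2714 to 4354 CPM at 6 months, with 1 of 8 called lower. Without the 3 libraries in doubt 5 of these 8 granulosa markers were called lower and 1 higher. A fit with a covariate for the oviduct score called 1 of the 10 genes, Npm2 (log2 change -2.05, edgeR adjusted p = 0.049), and the 10 changes ran from -2.58 to -0.92. The same fit called 501 of 16099 genes lower, against 1332 without the covariate.

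In normal mice, 9 of the 10 genes were lower at 22 months than at 6 months in edgeR, with 4.14% of all tested genes lower by the same rule. These 9 include Dppa3 and Rfpl4, which passed the filter on low counts only through their counts in dwarf mice. The median log2 change was -3.81, against -0.02 over all tested genes, and the changes ran from -5.05 for Rfpl4 to -1.89 for Oosp1, the gene with no call (edgeR adjusted p = 0.178). The groups overlapped for all 10 genes, and normal 6-month replicate 2 was the lowest of its group for each of them. Without it, edgeR called all 10, with 1635 of 16272 genes called lower in that fit, and for 9 of 10 each 22-month library lay below each 6-month library, which held for 5.22% of all tested genes under the same condition. Oosp1 was the exception, since 6-month replicate 3 lay below 22-month replicates 3 and 5. This 6-month library had 1 count of Oosp1, and 3 counts there amount to 2.20 CPM. That is above both 22-month values (1.77 and 1.45 CPM), so this overlap is not resolved. Without all 3 libraries in doubt edgeR also called 10 of 10 lower, against 12.9% of all tested genes.

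Rfpl4 had 0.493, 0, 0.118, 0 and 0.553 CPM in normal mice at 22 months, from 0 to 10 counts, against 7.70, 0.0728, 10.3, 10.6 and 16.3 CPM at 6 months. It was close to undetected in 22-month libraries and its log2 change of -5.05 ± 0.869 (edgeR adjusted p = 0.00787) was the largest of the 10, with a size that rests on these low counts. Rfpl4 was tested only because its counts in dwarf mice passed the filter, and the same holds for Dppa3. Dppa3 had 0.592, 0, 0.354, 0.386 and 0.622 CPM at 22 months, against 8.09, 0.146, 4.39, 13.3 and 16.9 CPM at 6 months. Its log2 change was -4.42 ± 0.749 (edgeR adjusted p = 0.00787). A count of 0 allows up to 0.258 CPM of either gene in replicate 2 at 22 months, and up to 0.578 CPM of Rfpl4 in replicate 4, which is above every value measured for it in that group.

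Kpna7 likewise had 0.296, 0, 0.118, 0 and 1.11 CPM in normal mice at 22 months, against 4.24, 0, 5.86, 7.89 and 8.93 CPM at 6 months, a log2 change of -4.00 ± 0.883 (edgeR adjusted p = 0.0136). The more abundant genes remained measurable at 22 months. H1foo had 1.48, 1.12, 0.648, 3.86 and 5.32 CPM, against 46.5, 0.510, 52.0, 67.7 and 50.7 CPM at 6 months, a log2 change of -4.22 ± 0.762 (edgeR adjusted p = 0.00812). Npm2 averaged 2.18 ± 1.37 and 30.2 ± 18.7 CPM in the same order, and Bcl2l10 2.11 ± 1.83 and 28.8 ± 16.9 CPM. Replicates 4 and 5 were the highest of the 22-month normal libraries in the sum over the 10 genes.

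Oosp1 was uneven among the old normal ovaries. It had 0.247, 0.0859, 1.77, 0.193 and 1.45 CPM at 22 months, against 2.57, 0, 0.732, 3.66 and 6.96 CPM at 6 months. The highest of the 22-month libraries was replicate 3, where Oosp1 made up 30 of 94 counts of the 10 genes (31.9%), against 1.35 to 5.50% in the other 22-month normal libraries. A high share in 1 library was not particular to Oosp1. Btg4 made up 17 of 74 counts (23.0%) in replicate 4, against 2.13 to 10.0% in the other libraries of this group. In the same replicate 3, 6 B and plasma cell markers summed to 1112 CPM, against 51.2 to 174 CPM in the others, and their part in the Oosp1 value was not tested. Without that library and the pair of 6-month libraries in doubt (replicates 2 and 3), the log2 change of Oosp1 was -3.00 (edgeR adjusted p = 0.00286).

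Which libraries and terms entered the fit decided these calls. When the 10 normal libraries were fitted by themselves, edgeR called 0 of the 8 genes that passed that fit's filter (7 at an unadjusted p under 0.05) and 0 genes in all, with adjusted p of 0.214 to 0.508. The 2 genes that did not pass were Dppa3 and Rfpl4, which entered the test over 20 libraries through their counts in dwarf mice. A fit with a covariate for the oviduct score called 0 of 10 (7 at an unadjusted p under 0.05), with log2 changes of -3.55 to 0.08, and it called 9 of 16099 genes in all. Oviduct markers summed to 1934 to 3885 CPM in normal mice at 22 months and 32.5 to 338 CPM in the 6-month libraries other than replicate 2. Of these 8 markers edgeR called 1 higher at 22 months, or all 8 without the 3 libraries in doubt. Granulosa markers summed to 522 to 1969 CPM at 22 months and 2475 to 5303 CPM in the same 6-month libraries, with 1 of 8 called lower in edgeR, or 6 of 8 without the 3 libraries in doubt. B and plasma cell markers summed to 51.2 to 1112 CPM at 22 months and 6.20 to 16.1 CPM in those libraries, with 4 of 6 called higher. The part of these cell types in the changes of the 10 genes was not tested beyond the oviduct covariate.

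**Figure D3:**
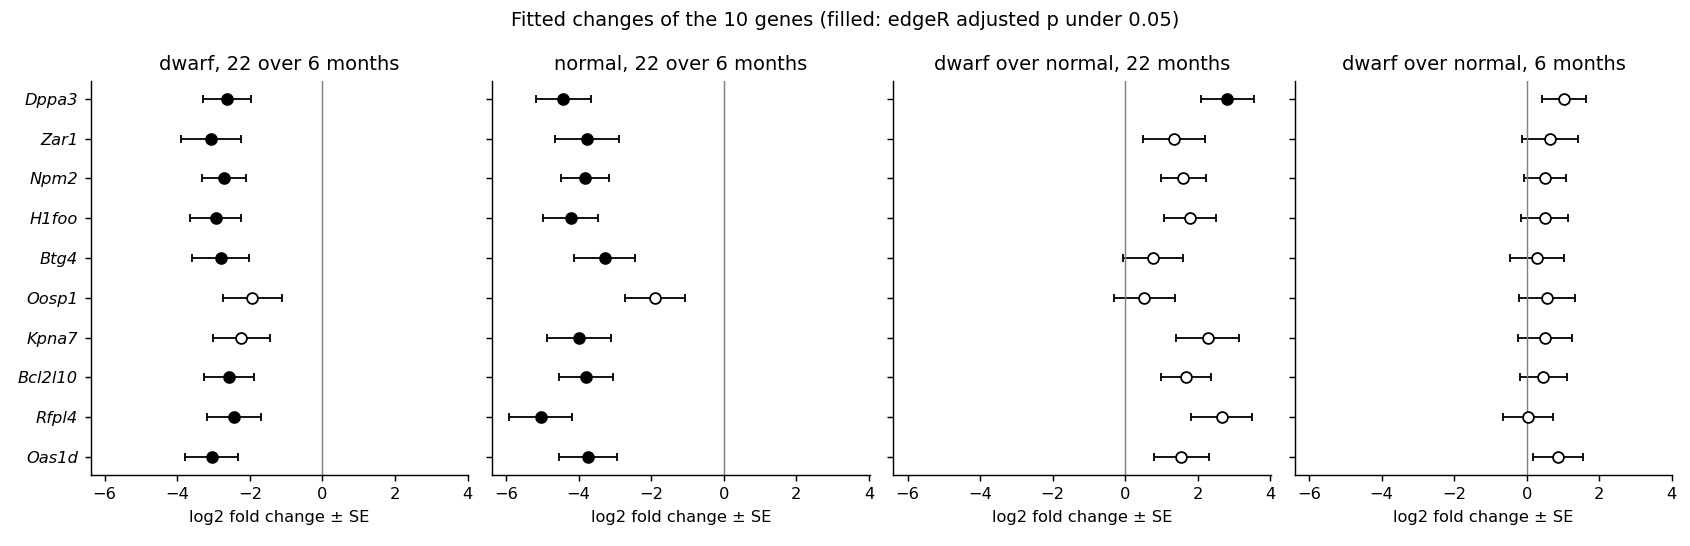
Fitted log2 fold changes of the 10 genes with standard errors for age in dwarf mice, age in normal mice, genotype at 22 months and genotype at 6 months, from left to right. Filled circles have an edgeR adjusted p under 0.05: 8, 9, 1 and 0 genes. All points lie below 0 for age and above 0 for genotype.

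At 22 months the 10 genes were all fitted higher in dwarf than in normal ovaries, and 1 of them, Dppa3, was called, against 1.96% of all tested genes called higher. The median log2 difference was 1.64, and the values ran from 0.52 for Oosp1 to 2.81 for Dppa3. Dppa3 and Rfpl4 had the largest differences, and both passed the filter on low counts only through their counts in dwarf mice. Dwarf mice are the higher group here, so these genes are not counted as support for a genotype difference. At an unadjusted p under 0.05 there were 6 of the 10 genes and 2894 of all 16099. The dwarf and normal libraries of this age did not overlap for 5 genes, Dppa3, Npm2, Kpna7, Bcl2l10 and Rfpl4, and 5.16% of all tested genes were higher in dwarf mice without overlap.

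Dppa3 had 3.33, 3.56, 2.16, 3.40 and 2.96 CPM (16 to 38 counts) in dwarf mice at 22 months, against 0.592, 0, 0.354, 0.386 and 0.622 CPM (0 to 12 counts) in normal mice at 22 months. The lowest dwarf library was well above the highest normal library. The log2 difference was 2.81 ± 0.730 (edgeR adjusted p = 0.0357), but the call was lost in 9 of the 10 fits that left out 1 library of either group, with adjusted p of up to 0.0764 in edgeR. Summing the similar dwarf replicates 1 and 4 into 1 library also ended it (edgeR adjusted p = 0.0725). Over all genes the 10 fits called 262 to 637 and the summed fit 272, against 614 with all libraries. Among the counts of the 10 genes, Dppa3 took 5.78 to 10.3% in dwarf mice and 0 to 6.38% in normal mice at 22 months.

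Rfpl4 had 1.33, 2.47, 2.83, 1.16 and 1.30 CPM in dwarf mice at 22 months, against 0.493, 0, 0.118, 0 and 0.553 CPM in normal mice at 22 months. All dwarf libraries were higher, with a log2 difference of 2.66 ± 0.840 that missed the threshold in edgeR (adjusted p = 0.0841) and passed it in DESeq2 (adjusted p = 0.0125). Kpna7 had 2.13, 1.88, 1.93, 1.61 and 1.11 CPM in dwarf mice, against 0.296, 0, 0.118, 0 and 1.11 CPM in normal mice. Its groups only just separated, since normal replicate 5 came close to dwarf replicate 5. Its log2 difference of 2.27 ± 0.865 was not called (edgeR adjusted p = 0.156).

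Npm2 had 9.72, 5.93, 5.80, 8.33 and 5.56 CPM in dwarf mice at 22 months, against 2.17, 1.12, 1.18, 1.93 and 4.49 CPM in normal mice at 22 months (log2 difference 1.60 ± 0.623, edgeR adjusted p = 0.167). Bcl2l10 averaged 7.19 ± 1.34 CPM in dwarf mice and 2.11 ± 1.83 CPM in normal mice (log2 difference 1.67 ± 0.696, edgeR adjusted p = 0.204). For H1foo, Zar1, Btg4, Oas1d and Oosp1 the 2 groups overlapped. In Btg4 the overlap was wide, with 0.185 to 2.77 CPM in dwarf mice and 0.118 to 3.28 CPM in normal mice.

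The number of calls at 22 months depended on the libraries used. Without the 3 libraries in doubt, edgeR called 6 of 10 higher, against 5.37% of all tested genes: Dppa3, Npm2, H1foo, Rfpl4, Bcl2l10 and Kpna7, with log2 differences of 1.45 to 2.76. Without the 3 libraries with the highest title numbers (dwarf 22-month replicate 5, normal 22-month replicate 3 and normal 6-month replicate 5), it called 0. With a covariate for the oviduct score the call of Dppa3 remained (log2 difference 2.56, edgeR adjusted p = 0.0111), in a fit that called 969 of 16099 genes in either direction. Of 8 granulosa markers edgeR called 1 higher in dwarf mice at this age, with sums of 1232 to 2429 CPM in dwarf and 522 to 1969 CPM in normal ovaries. Luteal markers differed between these groups, with 2 of 6 called lower in dwarf mice (4 of 6 without the 3 libraries in doubt) and sums of 1518 to 4010 CPM in dwarf and 1867 to 7537 CPM in normal ovaries, and their part in these differences was not tested.

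At 6 months no difference between genotypes was called in edgeR without a covariate. EdgeR called 0 of the 10 genes between dwarf and normal mice, with 0 at an unadjusted p under 0.05, while 4.57% of all tested genes were called in either direction. DESeq2 and limma voom also called 0 of the 10, with Dppa3 at an unadjusted p of 0.0388 in limma voom. The log2 differences were 0.05 to 1.03 with a median of 0.50. They were smaller without normal 6-month replicate 2, when they ran from -0.25 for Rfpl4 to 0.72 for Dppa3. Zar1 illustrates the range, with 29.4, 25.6, 22.3, 30.9 and 26.3 CPM in dwarf mice at 6 months, against 18.4, 0.146, 26.4, 22.9 and 16.3 CPM in normal mice at 6 months. With a covariate for the oviduct score Dppa3 was called higher in dwarf mice at this age (log2 difference 1.71, edgeR adjusted p = 0.044), in a fit that called 1254 of 16099 genes in either direction.

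The age responses of dwarf and normal mice were not shown to differ. EdgeR called 0 of the 10 genes for the difference between the responses, and 0 of 16099 genes (0.0%) in all. At an unadjusted p under 0.05 there was 1 of the 10 and 1127 of all genes. DESeq2 called 17 genes and limma voom 9 genes, 0 of them among the 10. Of the 10 differences, 9 were positive, meaning a smaller fall in dwarf mice, with a median of 1.16 on the log2 scale. Rfpl4 had the largest difference, 2.61 ± 1.08 (SE, edgeR adjusted p = 0.652), with responses of -2.43 in dwarf and -5.05 in normal mice. Dppa3 followed with 1.79 ± 0.936 (edgeR adjusted p = 0.773). Rfpl4 and Dppa3 passed the filter on low counts only through their counts in dwarf mice. Without the 3 libraries in doubt edgeR called 0 of the 10 and 202 of 16366 genes in all, with 6 of the 10 and 3913 of all genes at an unadjusted p under 0.05. The age and genotype comparisons share the 22-month libraries, so their values are not independent.

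The level of the 10 genes followed that of other oocyte RNA. The oocyte markers used were Zp1, Zp2, Zp3, Gdf9, Bmp15, Figla, Nobox, Ddx4 and Dazl, none of which is among the 10. EdgeR called 8 of these 9 lower at 22 months in each genotype, 1 higher in dwarf mice at 22 months and 0 between genotypes at 6 months. It called all 9 lower at 22 months in each genotype and 5 higher in dwarf mice at 22 months when the 3 libraries in doubt were left out. No marker was at 0 in every library of a group. For every 100 CPM of these 9 markers, the 10 genes summed to 48.3 to 63.2 CPM in dwarf mice at 22 months, 55.6 to 65.8 in dwarf mice at 6 months, 57.4 to 101 in normal mice at 22 months and 54.5 to 80.5 in normal mice at 6 months. The summed level itself ranged from 2.26 to 288 CPM over the 20 libraries. The highest ratio, in normal 22-month replicate 1, came with a sum of 9.87 CPM. With the oocyte marker score as a covariate in edgeR, 0 of the 10 genes were called in any of the 5 comparisons, and the log2 changes with age ran from 0.12 to 1.75 in dwarf mice and from -0.61 to 1.91 in normal mice. Over all 16099 genes these fits called 374 for age in dwarf mice, 9 for age in normal mice, 777 for genotype at 22 months, 1144 at 6 months and 0 for the difference in age response, so for age in normal mice and the difference in response few or no genes of any kind were called. The score is made of genes that follow the mean of the 10 across libraries, such as Zp3 (Pearson correlation 0.989) and Gdf9 (0.987). The loss of the calls was thus largely built in for all 5 comparisons, and no conclusion is drawn from it.

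**Figure D4:**
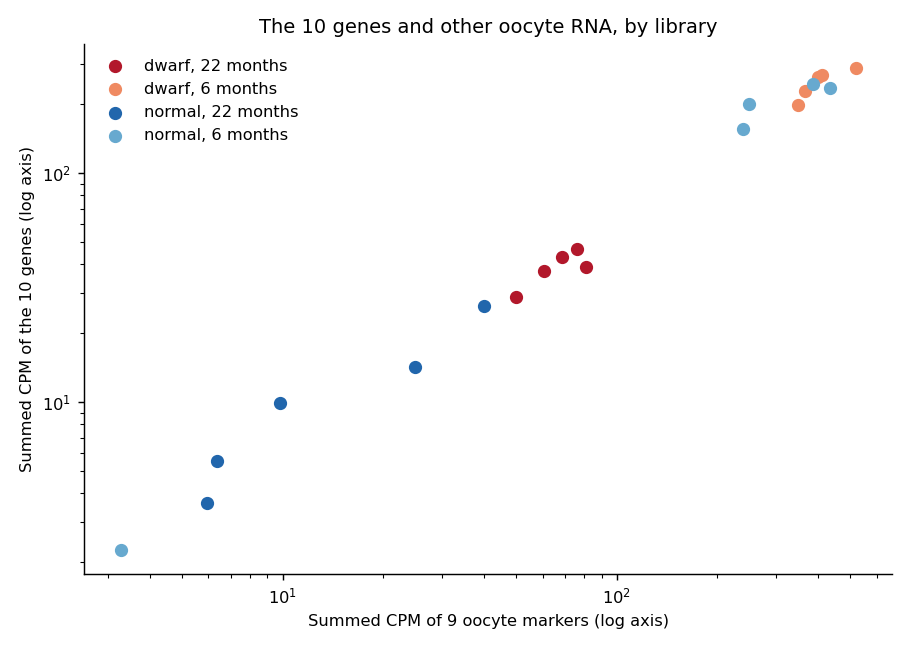
Summed CPM of the 10 genes against summed CPM of 9 oocyte markers in the 20 libraries, both on log axes. Dwarf 22-month libraries (28.9 to 46.6 CPM on the vertical axis) lie above normal 22-month libraries (3.61 to 26.4 CPM) along the same diagonal, and the lowest point is normal 6-month replicate 2.

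Across the 20 libraries the genes most like the mean of the 10 were other oocyte genes. Ranked by Pearson correlation of log2 CPM over 16089 genes, the 10 nearest were Khdc1b, C86187, Padi6, Pramef12, AU022751, Zp3, Gdf9, Eif4e1b, Tcl1 and Gm1965, with r of 0.983 to 0.994. These correlations describe libraries that share groups and depth, and normal 6-month replicate 2 lies at 1 end of each. Padi6, a component of the cytoplasmic lattices of the oocyte, averaged 29.8 ± 5.45 CPM in dwarf mice at 22 months, 230 ± 31.9 in dwarf mice at 6 months, 7.11 ± 6.40 in normal mice at 22 months and 119 ± 83.7 in normal mice at 6 months. The single nearest gene was Nlrp14 for Dppa3, Zp3 for Zar1, Bcl2l10 for Npm2, Gdf9 for H1foo, Pou5f1 for Btg4, Mos for Kpna7, Npm2 for Bcl2l10, Kpna7 for Rfpl4 and Khdc1b for Oas1d, with r of 0.969 to 0.993. Oosp1 was the least like the others, with r = 0.824 to the mean of the other 9, and its nearest gene was Patl2 (r = 0.952). Without normal 6-month replicate 2 and with group means removed, Npm2 followed the other members most closely (r = 0.857) and Oosp1 least (r = 0.235), over 19 libraries.

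Other egg-specific genes were also lower at 22 months. Of 29 on the list, 25 were tested. EdgeR called 15 lower at 22 months in dwarf mice (median log2 change -2.41) and 24 lower in normal mice (median -4.08), and called 0 between genotypes at either age. Zar1l, the relative of Zar1, fell with a log2 change of -3.06 in dwarf mice (edgeR adjusted p = 0.0157) and -5.29 in normal mice (edgeR adjusted p = 0.00816). Mos, the kinase that holds the egg in meiotic arrest, was called lower with a log2 change of -2.69 in dwarf and -4.51 in normal mice. Cpeb1, which controls polyadenylation of stored messengers and is also made outside the oocyte, had log2 changes of -0.30 and 0.02 with no call in either genotype. Without the 3 libraries in doubt, edgeR called 10 of the 25 higher in dwarf than in normal mice at 22 months.

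Maternal-effect genes that many cell types use had smaller changes. Of 22 tested, edgeR called 6 lower at 22 months in dwarf mice (median log2 change -0.47) and 5 in normal mice (median -0.26), and called none higher. Without the 3 libraries in doubt it called 11 lower in each genotype and 1 higher in normal mice. Uhrf1 and Dnmt1, which copy DNA methylation after replication, were called lower in both, with log2 changes of -1.84 and -1.38 in dwarf mice and -1.66 and -1.10 in normal mice. Tet3, the dioxygenase that Dppa3 holds back in the zygote, had log2 changes of -0.58 and -0.30 with no call. Of 11 genes of the deadenylation machinery with which Btg4 works, 1 was called lower in each genotype, Cnot3, with log2 changes of -0.44 in dwarf and -0.46 in normal mice. The counts were 3 lower and 1 higher in dwarf mice, and 2 lower in normal mice, without the 3 libraries in doubt. The medians of this list were 0.04 in dwarf and -0.15 in normal mice.

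Within the families of the 10 genes, members separated. In the Oas family, Oas1c, Oas1e and Oas1h were called lower at 22 months in both genotypes, as was Oas1f in dwarf mice. Oas1h had a log2 change of -2.34 in dwarf mice (edgeR adjusted p = 0.00798) and -3.44 in normal mice (edgeR adjusted p = 0.00745). The other 7 tested members (Oas1a, Oas1b, Oas1g, Oas2, Oas3, Oasl1 and Oasl2) had log2 changes of 0.34 to 1.40 in dwarf mice and 0.65 to 1.74 in normal mice, with no call. In normal mice, 3 genes of the family were called higher and 4 lower without the 3 libraries in doubt. These include the enzymes that interferon induces for defence against viral RNA. Oas1d lies at chr5:120914818-120921647 on the plus strand, 7293 bases from Oas1a. The Oas1 genes are close copies whose reads the counting could split or lose, so single members are uncertain.

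**Figure D5:**
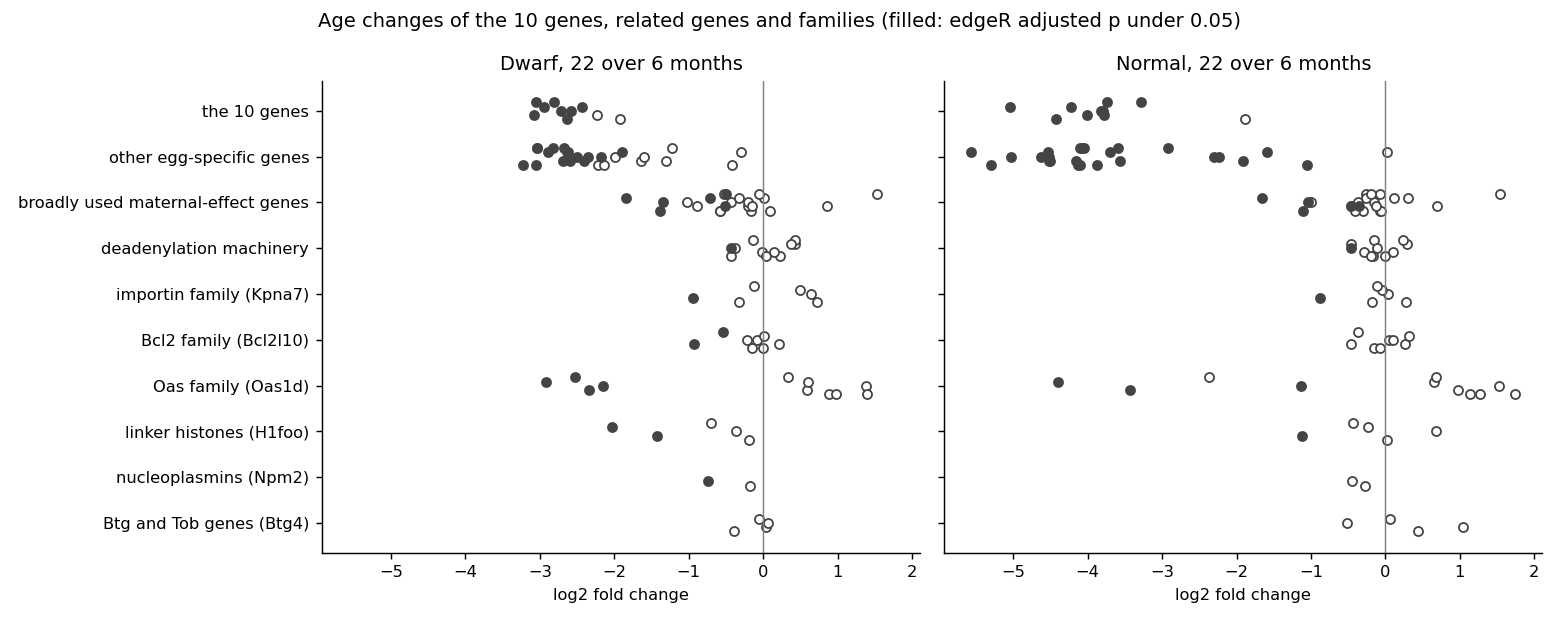
Log2 fold changes at 22 against 6 months in dwarf (left) and normal (right) mice for the 10 genes, for other egg-specific genes, for broadly used maternal-effect genes and for families related to the 10. Each circle is a gene and filled circles have an edgeR adjusted p under 0.05. The Oas family falls into a group below -1 and a group above 0 in both genotypes.

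Relatives of the other genes that are used in somatic cells were called in part. Npm1 had log2 changes of -0.18 in dwarf and -0.27 in normal mice with no call, and Npm3 was called lower in dwarf mice (log2 change -0.73, edgeR adjusted p = 0.016). Among 6 importin genes Kpna2 was called lower in both, with log2 changes of -0.94 in dwarf and -0.88 in normal mice. EdgeR called 1 importin gene lower and 3 higher in dwarf mice, and 4 lower in normal mice, when the 3 libraries in doubt were left out. Of 8 Bcl2-family genes, Bax and Bok were called lower in dwarf mice (log2 changes -0.54 and -0.94) and none in normal mice. The linker histone H1fx fell in both genotypes and Hist1h1d in dwarf mice, and edgeR called 0 of 4 tested Btg and Tob genes. Of 5 tested genes listed with Dppa3 for their use in pluripotent cells, Pou5f1, Sall4, Lin28a and Dppa5a were called lower in both genotypes, with log2 changes of -2.98 to -2.76 in dwarf and -4.18 to -2.99 in normal mice.

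No exon or span of the 10 genes overlapped another gene in the deposited mm10 annotation, whose positions follow. Dppa3 lies at chr6:122626424-122630271 and H1foo at chr6:115944939-115950233, both on the plus strand. Btg4 lies at chr9:51116001-51119700 and Bcl2l10 at chr9:75347758-75351640, also on the plus strand. Zar1 lies at chr5:72577114-72581084, Npm2 at chr14:70647302-70653084, Oosp1 at chr19:11667460-11691051, Kpna7 at chr5:144983744-145009636 and Rfpl4 at chr7:5109787-5116911, all on the minus strand. Levels refer to the union of a gene's exons. The counting's strand setting is not given here.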

How the data were processed

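Libraries were made from polyadenylated ovary RNA extracted with Trizol, per the labels' protocols. The deposited files hold whole-number counts of reads per gene, 1 file a library, with HTSeq summary rows that took 9.84 to 17.6% of a file's counts and entered neither library sizes nor tests. The submitters' processing notes name the build mm10 and the tools HTSeq, edgeR, DESeq, Bowtie2, TopHat and, in version 2.0.10, TopHat2. Their roles, the annotation release and the strand setting were not given in the sources used here. Gene positions (base coordinates, a unit of their own) came from the deposited gene annotation. No column of per-sample values was left unused (0).

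CPM here is a count over the library total without summary rows, with no pseudocount. Tests used edgeR 4.0.16 in R 4.3.3 on the counts: filterByExpr (minimum count 10, minimum total 15), TMM scaling, and a robust quasi-likelihood fit of 4 group means over 20 libraries (common dispersion 0.165). P-values were adjusted over all 16099 genes by Benjamini-Hochberg, and a call is an adjusted p under 0.05. The SE is the absolute log2 change over the square root of F. DESeq2 1.42.0 and limma 3.58.1 (voom with quality weights) were alternatives. Marker scores used as covariates are mean log2 CPM over a list. The test was checked on simulated data.

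Groups come from the labels. That each library is a separate mouse follows from the series' design of 20 mice. The 10 genes, the 20 gene and marker lists and the alternatives were chosen with earlier results of these data known. Genes named are the 10, up to 3 called genes per list and comparison, family relatives, and those most correlated with the 10 (log2 CPM, prior count 2). Tet3 and Cpeb1 were named after their values were seen. Limits on 0 counts are 3 counts over the total and cover counting error only.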

Additional observations from a re-analysis of the deposited data

Results flagged for a closer look

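In 2 of the 40 group values checked (10 genes in 4 groups), the highest library was separated from its group by more than 0.71 of the group's range, the 95% critical value of Dixon's test for 5 libraries. Chance gives such a gap in about 1 in 20 groups, or 5%. Both were in normal 22-month replicate 5. Kpna7 had 1.11 CPM there, against 0 to 0.296 CPM in the other 4 libraries of the group. Bcl2l10 had 5.25 CPM there, against 0.825 to 2.07 CPM in the others.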

How the results depend on the processing

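Scaling by RLE or upper quartile, no low-count filter, a filter at 1 CPM, non-robust estimates and removal of Rn45s and Lars2 each gave the same member counts as reported: 8 genes for age in dwarf mice, 9 for age in normal mice, 1 for genotype at 22 months, 0 at 6 months and 0 for the difference in age response. For age in normal mice, 0 were called with only the groups compared, 4 without the libraries of title numbers 21 to 23, 0 with the oviduct covariate and 0 with the oocyte covariate, while 9 were called by DESeq2 and 10 each by voom and without the 3 libraries in doubt. For age in dwarf mice, 5 were called without title numbers 21 to 23, 1 with the oviduct covariate, 0 with the oocyte covariate and 4 with dwarf 22-month replicates 1 and 4 summed, while 9 were called by DESeq2 and 10 each by voom, with only the groups compared and without the 3 libraries in doubt. For genotype at 22 months, 2 were called by DESeq2, 3 with only the groups compared, 6 without the 3 libraries in doubt, and 0 without title numbers 21 to 23, with the oocyte covariate or with those replicates summed. For genotype at 6 months, 1 was called with the oviduct covariate. Leaving out 1 library gave 4 to 8 calls for age in dwarf mice, 7 to 10 for age in normal mice, 0 to 2 at 22 months, and 0 to 0 at 6 months and for the difference in response. The covariates share variation with age, and the cause of the lost calls was not tested. Replicate numbers were not treated as pairs in the main fit. Correlations between same-numbered libraries ran from -0.215 to 0.719, which does not settle whether the numbers pair mice. The highest was for replicate 2 at 6 months, whose normal library is in doubt. With the replicate number as a block, 7, 9, 1, 0 and 0 genes were called in the first order above. These member counts are to be read beside the counts over all genes in the last paragraph, which moved with the setting as well.

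With the oocyte covariate these log2 values changed sign. For age in dwarf mice they became 0.23 for Dppa3, 0.76 for Zar1, 0.12 for Npm2, 0.44 for H1foo, 0.40 for Btg4, 0.73 for Oosp1, 1.75 for Kpna7, 0.71 for Bcl2l10, 0.79 for Rfpl4 and 0.22 for Oas1d. For age in normal mice they became 0.98 for Zar1, 0.087 for Npm2, 0.17 for H1foo, 0.87 for Btg4, 1.91 for Oosp1, 1.30 for Kpna7, 0.60 for Bcl2l10 and 0.51 for Oas1d. At 22 months dwarf minus normal became -0.62 for Zar1, -0.19 for Npm2, -0.13 for H1foo, -1.03 for Btg4, -1.24 for Oosp1, -0.25 for Bcl2l10 and -0.29 for Oas1d. At 6 months it became -0.40 for Zar1, -0.22 for Npm2, -0.41 for H1foo, -0.56 for Btg4, -0.057 for Oosp1, -0.40 for Kpna7, -0.36 for Bcl2l10 and -0.72 for Rfpl4. The difference in response became -0.22 for Zar1, -0.47 for Btg4 and -0.29 for Oas1d. With the oviduct covariate, Oosp1 became 0.081 for age in normal mice, and the difference in response became -0.0089 for Btg4 and -0.20 for Oas1d. Rfpl4 at 6 months became -0.25 without the 3 libraries in doubt. The difference in response of Oosp1 became 0.42 in voom, 0.027 with the replicate block, 1.08 without the 3 libraries in doubt and 0.076 with replicates 1 and 4 summed. Leaving out 1 library gave -0.010 to 0.45 for Btg4 and -0.25 to 0.35 for Rfpl4 at 6 months, and -0.64 to 0.55 for the difference in response of Oosp1.

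Over all genes, edgeR called 1802, 1086, 614 and 735 for age in dwarf mice, age in normal mice, genotype at 22 months and genotype at 6 months. DESeq2 called 2747, 1766, 1201 and 1414, voom 7519, 3859, 2291 and 1860, and edgeR on only the groups compared 5169, 0, 841 and 244. Without title numbers 21 to 23 edgeR called 1674, 188, 323 and 764 in the same order. It called 4697, 4848, 1762 and 1991 without the 3 libraries in doubt, and 800, 9, 969 and 1254 with the oviduct covariate. With dwarf 22-month replicates 1 and 4 summed it called 1107, 1072, 272 and 586, and with the replicate block 1904, 1118, 560 and 672. Leaving out 1 library gave 802 to 1681, 481 to 4384, 262 to 637 and 369 to 1459 calls over all genes in the same order. Low counts limit the normal 22-month values, where several genes had under 10 counts in a library. Total counts were not lower in this group, with a median of 14479403 against 10120399 in dwarf mice at 22 months. Dwarf 22-month libraries also had such low counts, for example 1 count of Btg4 in replicate 5.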
